A study of Mus musculus with 15 samples.

Results

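The genes of fructose uptake and fructolysis described here are Slc2a2, Slc2a5, Slc2a8, Khk, Tkfc, Glyctk and Sord, chosen by name for their place in the pathway. Each was taken as the probe set that carries its symbol on the Clariom S mouse array, which reads 1 gene with a set of short probes. The annotation named 6 of the 7, each with 1 probe set, out of 19505 symbols on the array, and Sord, sorbitol dehydrogenase, was not analysed here. The liver values come from 15 C57BL/6 mice colonised with human gut microbes, 3 separate mice in each of 5 groups, chosen from the 8 that the study kept per group. The water group drank plain water. The fructose group drank 10% fructose, and the other 3 groups drank 10% fructose with sodium benzoate (4.8 mg daily for each kg of body weight), sodium nitrite (0.36) or potassium sorbate (19). Fructose was given from the age of 3 weeks for 11 weeks, so that the mice were 14 weeks old when it ended, although their labels state 11 weeks. Every group that drank a preservative also drank fructose, so a preservative alone was not measured. The sex of each mouse was not labelled, and the signal of Y-linked genes, given below, stands in for it.

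Fructose enters hepatocytes from portal blood through facilitative carriers, of which GLUT2, encoded by Slc2a2, is the main one at the hepatocyte surface. Ketohexokinase (Khk) phosphorylates it to fructose 1-phosphate without the feedback control that limits glucose phosphorylation, and the product is split into dihydroxyacetone phosphate and glyceraldehyde. Triokinase (Tkfc) phosphorylates glyceraldehyde, which returns it to glycolysis. Glycerate kinase (Glyctk) acts on glycerate, an oxidation product of glyceraldehyde. GLUT5, encoded by Slc2a5, is the fructose carrier of the small intestine, GLUT8 (Slc2a8) is a mostly intracellular hexose carrier, and sorbitol dehydrogenase makes fructose inside the cell from sorbitol. In the liver this pathway is known as a source of carbon for fat synthesis after sugar intake.

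The promoters of the 4 genes that rose in every fructose group are shown because these genes moved together and because sugar-responsive and liver-enriched transcription factors bind short motifs of known sequence. Each sequence is the 250 bases before the start site of 1 transcript in RefSeq (mouse build GRCm38.p6), written 5′ to 3′ on the strand of the gene. The Slc2a2 window ends where the gene begins. The Tkfc and Glyctk windows lie inside the span of the gene given below, and the Khk window overlaps that span. For Khk, Tkfc and Glyctk the start site used is therefore not the outermost, and motif distances refer to it alone. Capitals mark matches to the E-box CACGTG, to the HNF1 half-site GTTAAT, to the HNF4 element CAAAGTCCA or to the CCAAT box, searched on both strands, so that a match on the opposite strand reads in reverse complement. None of the marked matches overlap.
Slc2a2, chr3:28697653-28697902, plus strand: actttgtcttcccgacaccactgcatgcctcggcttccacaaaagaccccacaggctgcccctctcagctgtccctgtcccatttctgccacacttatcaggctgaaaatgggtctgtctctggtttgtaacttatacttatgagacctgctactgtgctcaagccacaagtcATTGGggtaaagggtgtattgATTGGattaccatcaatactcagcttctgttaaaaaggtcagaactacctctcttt
Khk, chr5:30921309-30921558, plus strand: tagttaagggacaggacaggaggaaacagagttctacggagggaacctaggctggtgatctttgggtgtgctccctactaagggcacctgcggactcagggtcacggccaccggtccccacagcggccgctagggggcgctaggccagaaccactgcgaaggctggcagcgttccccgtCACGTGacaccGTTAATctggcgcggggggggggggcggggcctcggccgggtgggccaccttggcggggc
Tkfc, chr19:10604259-10604508, minus strand: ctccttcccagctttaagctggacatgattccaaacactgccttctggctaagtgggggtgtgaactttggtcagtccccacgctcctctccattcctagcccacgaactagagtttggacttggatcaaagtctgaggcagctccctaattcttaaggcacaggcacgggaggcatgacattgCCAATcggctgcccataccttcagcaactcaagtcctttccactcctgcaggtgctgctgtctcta
Glyctk, chr9:106158139-106158388, minus strand: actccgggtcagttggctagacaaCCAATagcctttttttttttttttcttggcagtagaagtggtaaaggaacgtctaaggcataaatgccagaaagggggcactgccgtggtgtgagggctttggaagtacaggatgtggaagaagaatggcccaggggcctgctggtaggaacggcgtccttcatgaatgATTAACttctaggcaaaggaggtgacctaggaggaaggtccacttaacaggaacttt
Khk held an E-box 71 bases before its start and an HNF1 half-site 60 bases before it. Glyctk held an HNF1 half-site on the opposite strand at 57 bases and a CCAAT box at 226 bases. Tkfc held 1 CCAAT box at 66 bases, and Slc2a2 held 2 on the opposite strand at 77 and 56 bases. The HNF4 element was not found in these 4 windows. Over 32851 windows of the same length, an E-box stood in 6.02%, an HNF1 half-site in 6.43%, a CCAAT box in 33.8% and the HNF4 element in 0.384%, so the matches are a description of these windows and no more. The GC content was 67.2% for Khk, 52.8% for Tkfc, 48.4% for Glyctk and 47.2% for Slc2a2, beside a median of 52.4% over all windows.

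The water arrays stood apart from the other 12 in measures that do not depend on fructose genes. The mean log2 signal of the 4 hybridization controls, RNA added at a fixed amount, was 13.02 ± 0.33 (SD, n = 3) on water and 11.86 to 12.16 on average in the fructose-fed groups, and within water it was 13.21, 13.20 and 12.64 on arrays 1, 2 and 3. The median of the negative control probes was 5.61 ± 0.02 on water and 6.35 to 6.53 on average elsewhere. Relative to the fructose group, the median of 18 very long transcripts was at -1.82 to -1.44 on the water arrays (log2) and that of 51 ribosomal protein genes at 1.08 to 1.18. The mean signal of 3 Y-linked genes was 3.39 to 4.17 on the 3 sorbate arrays and on benzoate arrays 2 and 3, and 9.37 to 10.00 on the other 10. Males carry the Y-linked genes, so the low arrays read as female mice and the others as male. Sorbate and sex thus cannot be told apart in comparisons with fructose or water, and the benzoate group is mixed. The mean of 8 hepatocyte markers, among them Alb and Ttr, was 18.42 to 19.04 on all 15 arrays, and 1 of the 8 (Cps1) rose with fructose. No batch or scan date was known, so a difference in array handling and the drink cannot be told apart in comparisons with water.

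Against water, Slc2a2, Khk, Tkfc and Glyctk rose in the fructose group and in each of the 3 preservative groups, and Slc2a5 and Slc2a8 did not pass the test in any of them. A gene passed at an adjusted p under 0.05 (limma, Benjamini-Hochberg over 22206 probe sets). The 4 of 6 that rose stand beside 11.8% of all probe sets that rose in the fructose group, 15.6% in the benzoate group, 16.0% in the nitrite group and 16.7% in the sorbate group. Among the 2842 probe sets with a mean signal of at least that of Glyctk, a background chosen after the values were seen, the shares were 31.7%, 38.6%, 37.4% and 39.1%. The median log2 fold change of the 6 genes was 1.13, 1.57, 1.44 and 1.51 in these groups, where the median of all probe sets was -0.12, -0.19, -0.15 and -0.20. All 12 fructose-fed arrays lay above the highest water array for Slc2a2, Khk, Tkfc and Glyctk, which held for 10.5% of all probe sets. The 4 comparisons share the same 3 water arrays and are not independent. In liver tissue, fewer cells of a type and less RNA per cell cannot be told apart.

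**Figure D1:**
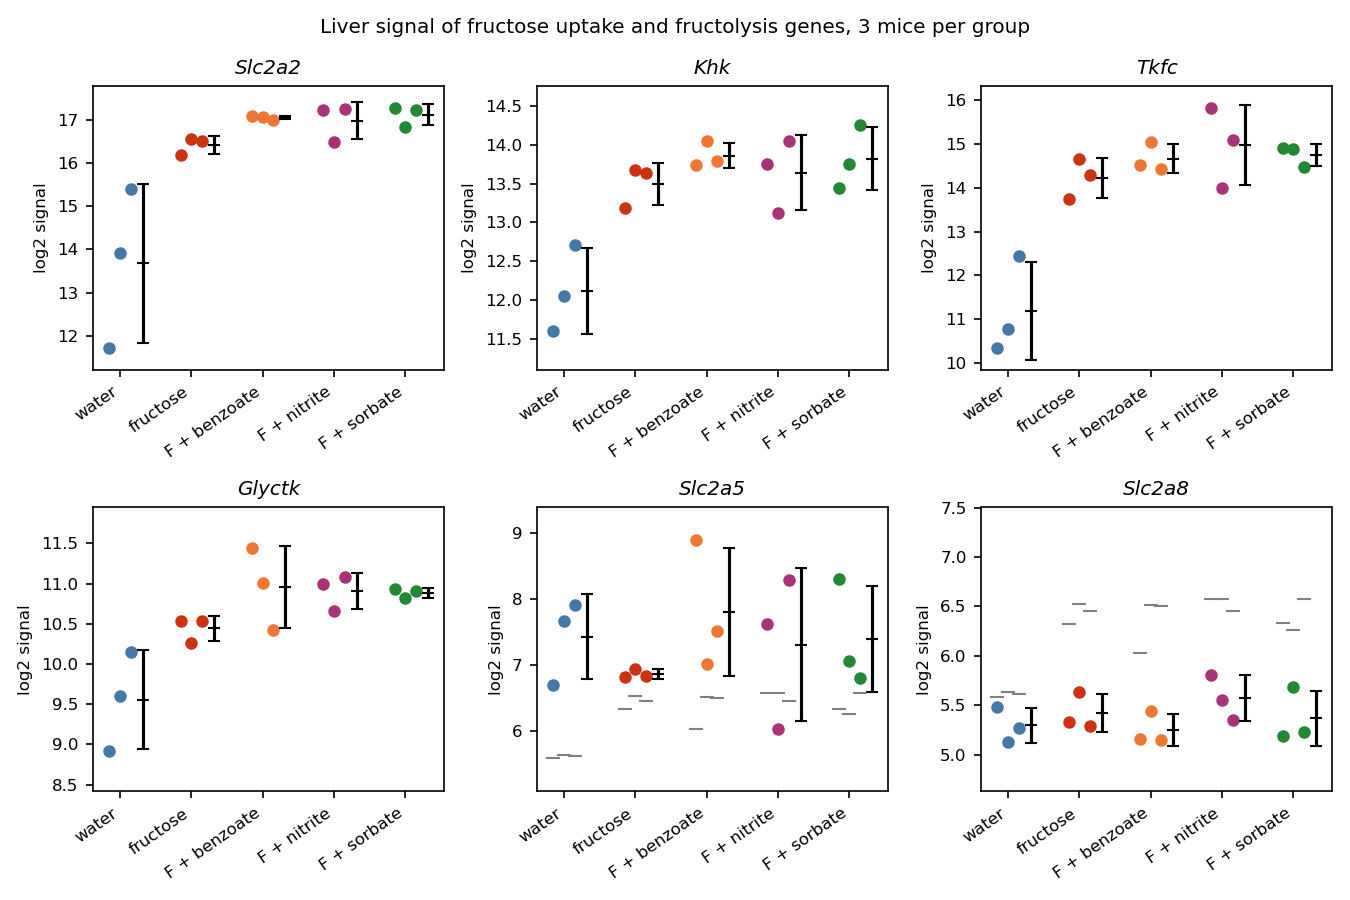
Log2 signal of 6 genes on each of 15 arrays, by group (F, fructose); points are mice in the order of arrays 1, 2 and 3, black bars are the mean ± SD (n = 3), and grey dashes in the Slc2a5 and Slc2a8 panels are the median of the negative control probes on the same array. The 3 water arrays lie below all 12 fructose-fed arrays for Slc2a2, Khk, Tkfc and Glyctk, and Slc2a8 lies below the negative controls on all 15; each panel has its own signal axis, which does not start at 0.

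The uptake step was represented by Slc2a2 (GRCm38.p6, chr3:28697903-28728361). Its log2 signal was 11.73, 13.91 and 15.40 on water arrays 1, 2 and 3, compared with 16.17, 16.55 and 16.51 in the fructose mice. It was 17.08, 17.07 and 17.00 with benzoate, 17.21, 16.48 and 17.24 with nitrite, and 17.27, 16.83 and 17.22 with sorbate. The water mice were spread over a wide range below the others, while the fructose-fed mice lay close together. The mean was 13.68 ± 1.85 (SD, n = 3) in water and 16.41 ± 0.21 in fructose, a log2 fold change of 2.74 (SE 0.56, adjusted p = 0.00177), and 0.576% of all probe sets had a larger one. The log2 fold change against water was 3.37 with benzoate (adjusted p = 1.96e-04), 3.30 with nitrite (2.09e-04) and 3.43 with sorbate (1.57e-04).

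Slc2a2 also had an unusual spread among the water mice, since 17 of 22206 probe sets had a larger SD over the 3 water arrays. Array 2 was 2.18 (log2) above array 1, a difference that 0.239% of probe sets exceeded, while the hybridization controls of the same pair differed by -0.01 and the hepatocyte markers by -0.16. Array 3 was 3.67 above array 1, where the hybridization controls differed by -0.58 and the hepatocyte markers by 0.29. It was 1.49 above array 2, where these differed by -0.56 and 0.45. The part of these measures in the spread of Slc2a2 was not tested. Tkfc had 426 probe sets with a larger water SD, Glyctk 5111 and Khk 6512. Water array 1 was the lowest and array 3 the highest of the group for Slc2a2, Khk, Tkfc, Glyctk and Slc2a5. Without water array 1, Slc2a2 differed between fructose and water by 1.76 (adjusted p = 0.00305).

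Khk (chr5:30921436-30931248), the enzyme of the committed step, was at 11.61, 12.05 and 12.71 in the water mice, compared with 13.18, 13.67 and 13.63 in the fructose mice. It was at 13.74, 14.04 and 13.79 with benzoate, at 13.76, 13.12 and 14.05 with nitrite, and at 13.45, 13.76 and 14.25 with sorbate. The highest water mouse was 0.41 below the lowest fructose-fed mouse, which was nitrite array 2. The mean rose from 12.12 ± 0.55 in water to 13.50 ± 0.27 in fructose, a log2 fold change of 1.37 (SE 0.31, adjusted p = 0.00344). The rise was 1.74 with benzoate (3.46e-04), 1.52 with nitrite (9.74e-04) and 1.70 with sorbate (3.92e-04). With the mean of the 3 Y-linked genes as a covariate, which was low on every sorbate array, Khk differed between sorbate and water by 1.54 and no longer passed (adjusted p = 0.0917), whereas Slc2a2, Tkfc and Glyctk still did.

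Tkfc (chr19:10592197-10605482) had the largest log2 fold change of the 6 genes in each of the 4 comparisons with water. Its signal was 10.35, 10.77 and 12.45 in the water mice, compared with 13.75, 14.65 and 14.29 in the fructose mice. It was 14.52, 15.04 and 14.44 with benzoate, 15.82, 14.00 and 15.09 with nitrite, and 14.90, 14.88 and 14.46 with sorbate. Water arrays 1 and 2 were close to each other and array 3 lay between them and the fructose-fed mice. From a mean of 11.19 ± 1.11 in water to 14.23 ± 0.45 in fructose, the log2 fold change was 3.04 (SE 0.46, adjusted p = 2.24e-04), and 0.302% of probe sets had a larger one. It was 3.48 with benzoate (3.35e-05), 3.78 with nitrite (1.34e-05) and 3.56 with sorbate (2.33e-05).

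Glyctk (chr9:106152859-106160158) rose least among these 4 genes in each of the 4 comparisons. Its signal was 8.92, 9.60 and 10.15 in the water mice, compared with 10.54, 10.26 and 10.53 in the fructose mice. It was 11.44, 11.01 and 10.43 with benzoate, 10.99, 10.65 and 11.08 with nitrite, and 10.94, 10.82 and 10.91 with sorbate. Water array 3 lay 0.11 below the lowest fructose array, so the 2 groups barely separated. The log2 fold change was 0.89 with fructose (SE 0.30, adjusted p = 0.0366), which 10.6% of probe sets exceeded, 1.40 with benzoate (0.00147), 1.35 with nitrite (0.00186) and 1.33 with sorbate (0.00207). Its call with fructose alone was lost when any 1 of 5 arrays was left out, namely water array 1 (0.57, adjusted p = 0.182), water array 2 (0.91, 0.0692) or fructose array 1 (0.84, 0.0898), 2 (0.98, 0.0590) or 3 (0.84, 0.107). It was also lost after quantile normalization (0.75, 0.0674). The calls of Glyctk with a preservative held without each array in turn.

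**Figure D2:**
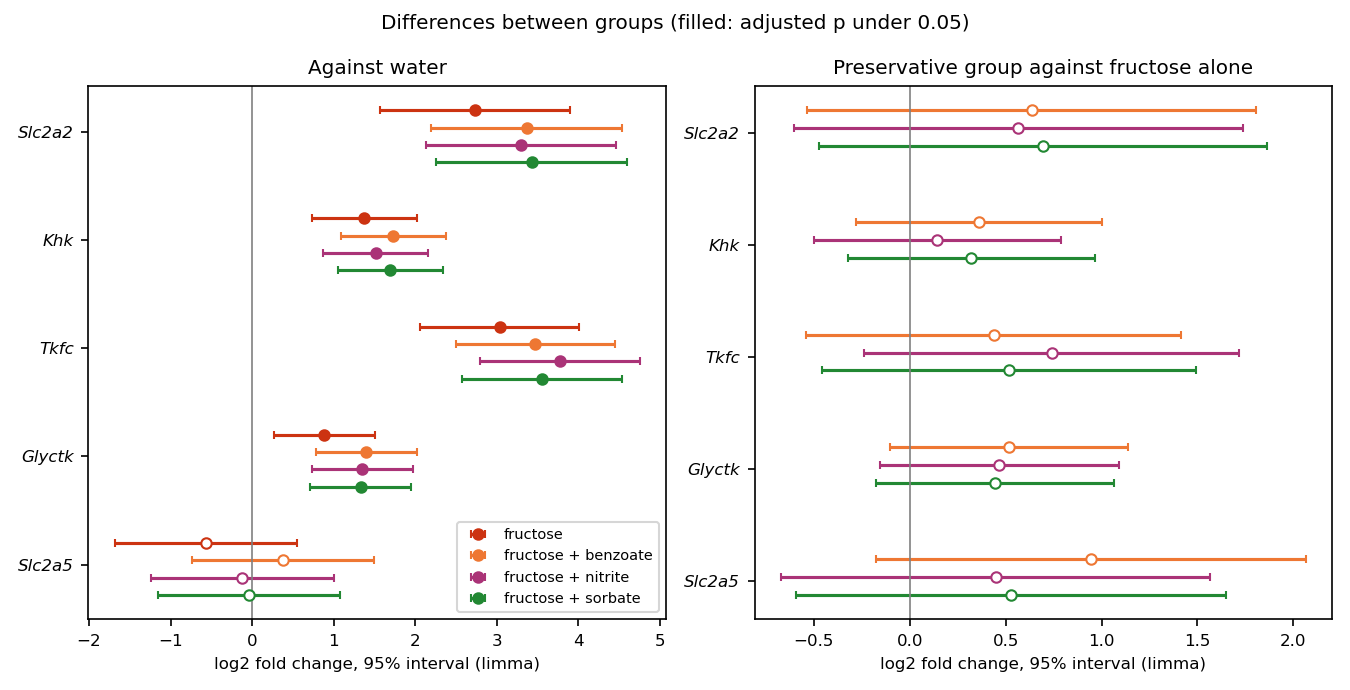
Log2 fold changes of 5 genes with 95% intervals from limma, for the 4 fructose-fed groups against water (left) and the 3 preservative groups against fructose alone (right); filled points have an adjusted p under 0.05. The 4 genes at the top are filled in all comparisons with water and open in all comparisons with fructose alone.

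These rises were fitted again under 2 settings that take up the array measures given above. With the hybridization control level of each array as a covariate, 0 of the 6 genes passed against water in any of the 4 groups, and the log2 fold change with fructose fell to 0.88 for Slc2a2, 0.45 for Khk, 1.77 for Tkfc and 0.69 for Glyctk. In that limma fit 0 probe sets of all 22206 passed with fructose and 1798 had an unadjusted p under 0.05. The covariate was 12.64 to 13.21 on the water arrays and at or under 12.40 on every fructose-fed array. It thus nearly marks the water group, and the fit can hardly separate the control level from the drink. Without water arrays 1 and 2, whose hybridization controls were the highest, 1 water array remained, and its spread was taken to be that of the other groups. The log2 fold changes with fructose were then 1.02 for Slc2a2 (adjusted p = 0.0880), 0.79 for Khk (0.248), 1.78 for Tkfc (0.0594) and 0.30 for Glyctk (0.676). In that limma fit 0 of the 6 genes passed with fructose, where 2.39% of all probe sets rose and 4697 of all had an unadjusted p under 0.05. With each preservative 2 passed, Slc2a2 and Tkfc, at 1.65 and 2.22 with benzoate, 1.58 and 2.52 with nitrite, and 1.71 and 2.30 with sorbate, beside 6.10%, 6.69% and 7.02% of all probe sets that rose. The sign of the difference stayed positive for these 4 genes under both settings. The negative controls, long transcripts and ribosomal protein genes were not fitted, and their part in the rises was not tested.

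**Figure D3:**
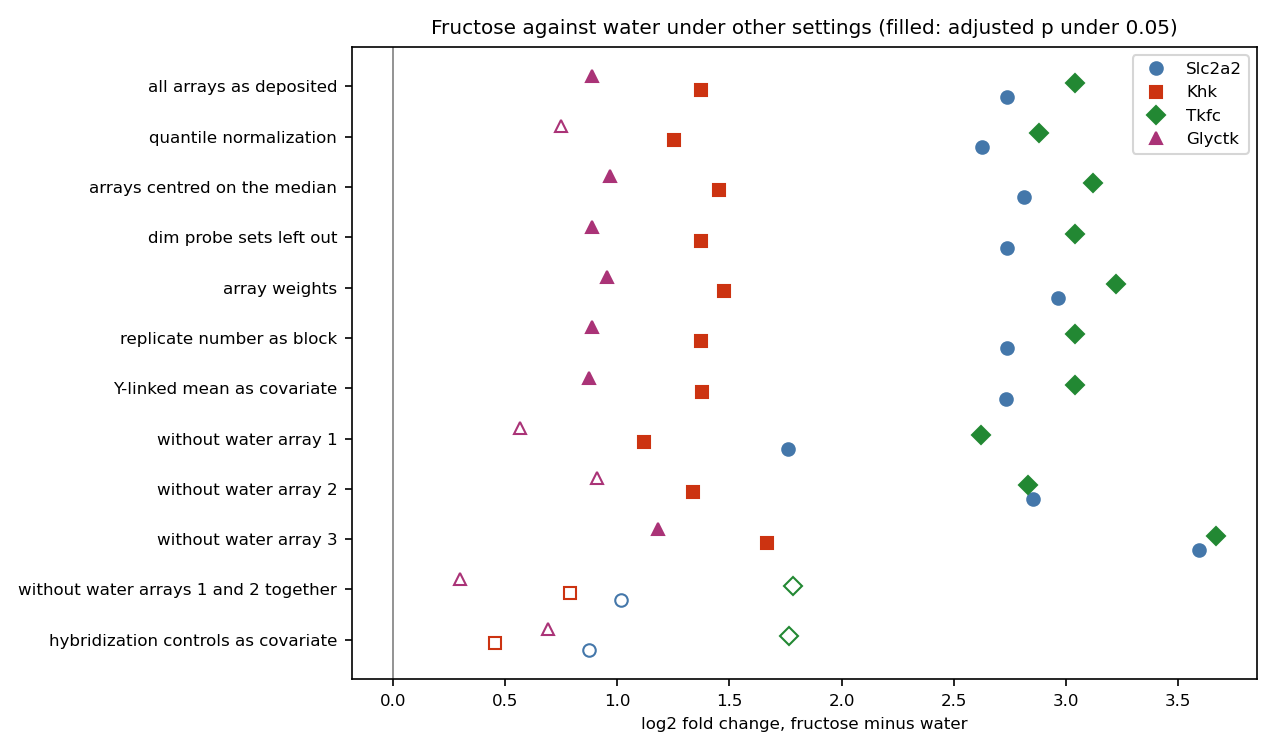
Log2 fold change of Slc2a2, Khk, Tkfc and Glyctk between fructose and water (horizontal axis) under 12 settings (rows); filled points have an adjusted p under 0.05. All points lie above 0, and the 4 genes are open in the last 2 rows, where water arrays 1 and 2 were left out or the hybridization controls entered the fit.

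**Figure D4:**
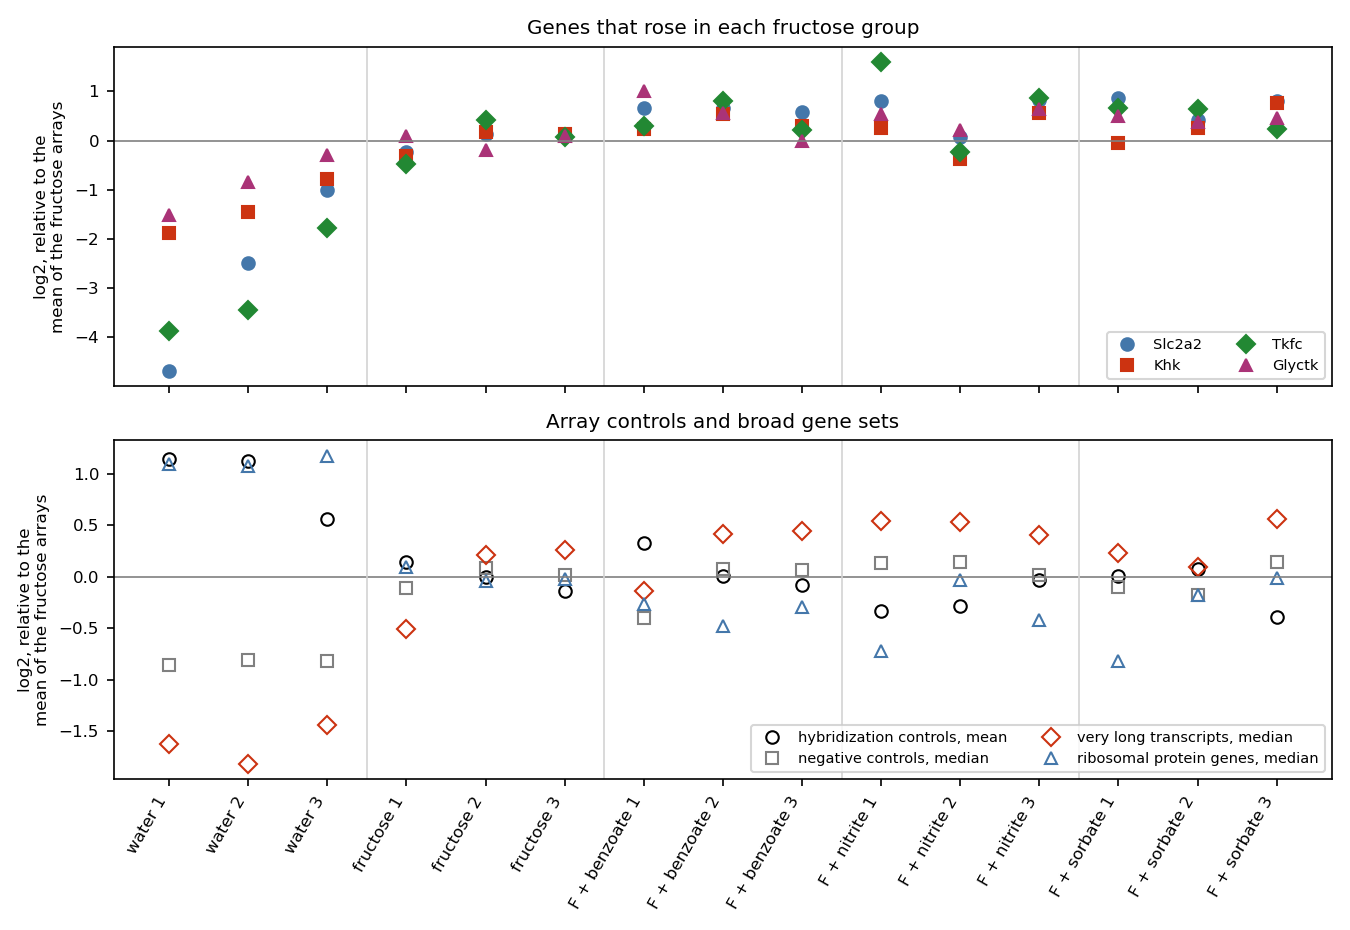
Top, log2 signal of 4 genes on each of 15 arrays with the fructose group mean set to 0; bottom, array controls and the medians of very long transcripts and ribosomal protein genes on the same scale (F, fructose). The 3 water arrays lie apart in both panels, and among them array 1 is the lowest and array 3 the highest for the 4 genes. Their negative controls and ribosomal medians lie close together, while array 3 is the lowest for the hybridization controls and the highest for the long transcripts.

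The other carriers gave no such pattern. Slc2a5 (chr4:150119344-150144168) had a log2 signal of 6.69, 7.67 and 7.91 in the water mice, 6.82, 6.94 and 6.82 in the fructose mice and 8.89, 7.02 and 7.51 with benzoate. It was 7.62, 6.02 and 8.28 with nitrite and 8.30, 7.06 and 6.80 with sorbate. All 5 groups overlapped, except that the 3 fructose arrays lay below the 3 benzoate arrays, and nitrite array 2 was under the median of its negative controls. The difference from water was -0.56 with fructose (95% interval -1.68 to 0.56, adjusted p = 0.468), 0.38 with benzoate (-0.74 to 1.50, 0.609), -0.12 with nitrite (-1.24 to 1.00, 0.882) and -0.04 with sorbate (-1.16 to 1.08, 0.963). Each interval still holds a 2-fold change in at least 1 direction, and each of these values changed sign under at least 1 other setting. Of 5 intestinal epithelium markers, Fabp2 and Vil1 were above the negative controls on 15 and 14 arrays, Sis and Lct on 1 each and Cdx2 on none, and 0 of the 5 passed with fructose.

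Slc2a8 (chr2:32972981-32982083) was not above background. Its log2 signal lay between 5.13 and 5.49 on the water arrays and between 5.15 and 5.81 on the 12 fructose-fed arrays, below the negative control median on all 15. No fold change is given for it, and no adjusted p was under 0.05.

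Among the fructose-fed groups, none of the 6 genes passed the test between a preservative group and fructose alone in the 3 comparisons (limma), where 0.0135% of all probe sets passed with benzoate, 0 with nitrite and 0.635% with sorbate, and none of the 6 had an unadjusted p under 0.05, beside 9.37%, 5.20% and 13.4% of all. The mean was nonetheless above that of fructose alone in 12 of 12 differences for Slc2a2, Khk, Tkfc and Glyctk, a count that rests on the same 3 fructose arrays throughout. Slc2a2 was higher by 0.64 with benzoate (95% interval -0.53 to 1.81), 0.57 with nitrite (-0.60 to 1.74) and 0.70 with sorbate (-0.47 to 1.86). Khk was higher by 0.36 (-0.28 to 1.00), 0.14 (-0.50 to 0.79) and 0.32 (-0.32 to 0.97) in the same order. The intervals for Slc2a2 reach past a 2-fold rise in all 3 groups, and those for Khk end at or under about 2-fold. Tkfc was higher by 0.44 with benzoate (-0.54 to 1.41), 0.74 with nitrite (-0.24 to 1.72) and 0.52 with sorbate (-0.46 to 1.49). Glyctk was higher by 0.52 (-0.11 to 1.14), 0.47 (-0.15 to 1.09) and 0.44 (-0.18 to 1.07), and Slc2a5 by 0.94 (-0.18 to 2.06), 0.45 (-0.67 to 1.57) and 0.53 (-0.59 to 1.65). The lowest adjusted p of the 6 genes was 0.622 with benzoate, 0.925 with nitrite and 0.555 with sorbate, and an F test over the 4 fructose-fed groups gave adjusted p from 0.805 to 0.929, with 0.432% of all probe sets passing.

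Ordered by group mean, water was the lowest and fructose alone the next for Slc2a2, Khk, Tkfc and Glyctk, and the preservative groups followed in a different order for each gene. Water and fructose did not overlap for any of the 4, beside 15.8% of all probe sets. Every other pair of neighbours in the order overlapped, except Glyctk between fructose and sorbate, where the step of 0.44 was larger than either group's SD although it did not pass the test. No array of the benzoate group overlapped with fructose alone for Slc2a2, Khk and Slc2a5, which is 3 of the 6 genes beside 8.27% of all probe sets. The same held for 1 of 6 with nitrite (Glyctk, 8.31% of all) and for 2 of 6 with sorbate (Slc2a2 and Glyctk, 12.3%). For Slc2a5 the order was fructose alone, nitrite, sorbate, water, then benzoate, and all its neighbours overlapped.

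The 4 genes fell into 2 pairs over the 15 arrays. Likeness was measured as the root mean square difference of gene-centred log2 values, for which 0 is an identical profile. Khk and Glyctk differed by 0.35 and Tkfc and Slc2a2 by 0.49, while the other pairs among the 4 differed by 0.84 to 1.01. These numbers take in the size of the change as well as its course. The pairs also differed in SD over the arrays, 0.75 and 0.64 against 1.57 and 1.54, and a difference in course alone was not tested. The genes nearest to Khk were Pcyox1 (0.18), which encodes prenylcysteine oxidase, Zfp532 (0.20) and Tecr (0.21), a reductase of very-long-chain fatty acid elongation, beside an SD of Khk over the arrays of 0.75. Nearest to Glyctk were Fah (0.18), the last enzyme of tyrosine breakdown, Zc3h7b (0.19) and Zbtb7b (0.20), beside an SD of 0.64. Nearest to Tkfc (SD 1.57) were Pcx (0.34), pyruvate carboxylase, R3hdm2 (0.35) and Slc12a7 (0.37), a potassium chloride cotransporter. R3hdm2 (0.40) and Slc12a7 (0.39) were also near Slc2a2 (SD 1.54), together with Ino80d (0.39). The nearest genes to Slc2a5 were Kpna2 (0.47), Aadacl4fm2 (0.48) and Rmdn3 (0.48), a loose match beside its own SD of 0.76.

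The rest of the pathway was read from 6 gene lists, 53 measured genes in all, of which 10 (18.9%) rose and 8 (15.1%) fell with fructose, beside 11.8% and 12.7% of all probe sets. In the step after Khk, 2 of 4 measured genes rose. Gpd1, which reduces dihydroxyacetone phosphate to glycerol 3-phosphate, went from 13.67 ± 0.53 (SD, n = 3) to 15.58 ± 0.26 (log2 fold change 1.91, adjusted p = 1.17e-04), and Aldoa, the muscle-type aldolase, rose by 1.01 (0.00842). Of the list for the polyol pathway, which makes sorbitol, only Akr1b8, Akr1b10 and Cryl1 were measured. The annotation did not name Akr1b3 or Akr1b1, symbols of aldose reductase, nor Sord, so the route itself was not measured. Akr1b10 was the 1 of the 3 that passed, with a lower value (0.0452). It was above the negative controls on the 3 water arrays and on no fructose array, and no fold is given. The negative control median was itself higher on fructose (6.44) than on water (5.61). Akr1b8 was likewise above it on 3 water arrays and 0 fructose arrays, yet did not pass (limma, adjusted p = 0.526). Of 16 other hexose transporters 0 passed (limma), 8 were above the negative controls on at least 1 array, and Slc2a9, a urate and hexose carrier, was nearest with 0.84 (0.0659). Against water, 2 of the 16 rose and 1 fell with benzoate and with nitrite, and 3 rose and 1 fell with sorbate, where 18.7%, 18.8% and 19.8% of all probe sets fell.

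Among 7 measured genes of hexose phosphorylation, 2 rose and 2 fell with fructose. Gckr, a regulatory protein of hepatic glucose phosphorylation that binds fructose 1-phosphate, went from 12.49 ± 0.24 to 13.71 ± 0.31 (1.22, adjusted p = 0.00154), and Hk1, a hexokinase of most tissues, rose by 0.96 (0.0250). Hk2 was above the negative controls on the 3 water arrays and not on the fructose arrays, and fell at least 1.38-fold (0.0300). Hkdc1 passed with a lower value (0.0325) but was above the negative controls on 2 water arrays and no fructose array, which leaves no fold. For Hk2 and Hkdc1, too, the negative control median was higher on fructose than on water. Of 12 genes of purine breakdown, 3 rose and 3 fell. The list covers the route from AMP to urate, which takes up AMP formed when Khk consumes ATP, and also the steps after urate. The AMP deaminase gene Ampd2 (1.80, 0.00240) and Xdh, xanthine dehydrogenase (1.76, 0.00189), rose, whereas Urad, which acts on a product of urate, went from 14.38 ± 0.14 to 12.57 ± 0.50 (-1.80, 2.34e-04) and Ampd3 fell by 1.36 (0.00158).

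Of 11 carbohydrate-responsive regulators, 3 rose and 2 fell. Mlxipl, the sugar-sensing factor ChREBP, went from 10.35 ± 0.45 in water to 13.12 ± 0.89 in fructose (2.77, adjusted p = 2.75e-04), and its relative Mlxip rose by 1.17 (0.0158). Their common partner Mlx fell by 1.48 (2.58e-04), and Nr1h3, the oxysterol receptor LXR alpha, fell by 1.87 (2.81e-04). Thus 2 of the 3 genes of this dimer system rose and the third fell. Against fructose alone, 0 of the 53 genes passed with benzoate or nitrite (limma), and 2 passed with sorbate. These were Nt5e, an ecto-nucleotidase, and Arrdc4, an arrestin-domain gene induced by ChREBP, both named after their values were seen. Nt5e was above the negative controls on the 3 sorbate arrays and on 0 of the 3 fructose arrays, and was at least 7.45-fold higher with sorbate (adjusted p = 0.00899). Over all 15 arrays it was above them on 5, of which 0 were water arrays. Its mean was 9.33 with sorbate, 8.10 with benzoate and 5.34 with nitrite. The benzoate mean was 2.65 above fructose and did not pass (limma, adjusted p = 0.204). Arrdc4 rose by 1.71 (0.0350). Neither passed with the Y-linked mean as a covariate, an alternative chosen after seeing the data, in which the adjusted p of Nt5e was 0.820 and Arrdc4 differed by 1.49 (0.641). That covariate was low on every sorbate array and high on every fructose array, so the fit can hardly separate sex from sorbate. With the hybridization controls as a covariate 0 of the 53 genes passed between fructose and water, and 14 of the 18 called ones kept their sign. In the fit with 1 water array, 2 rose and 3 fell, beside 2.39% and 2.27% of all probe sets, and 18 of 18 kept their sign.

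**Figure D5:**
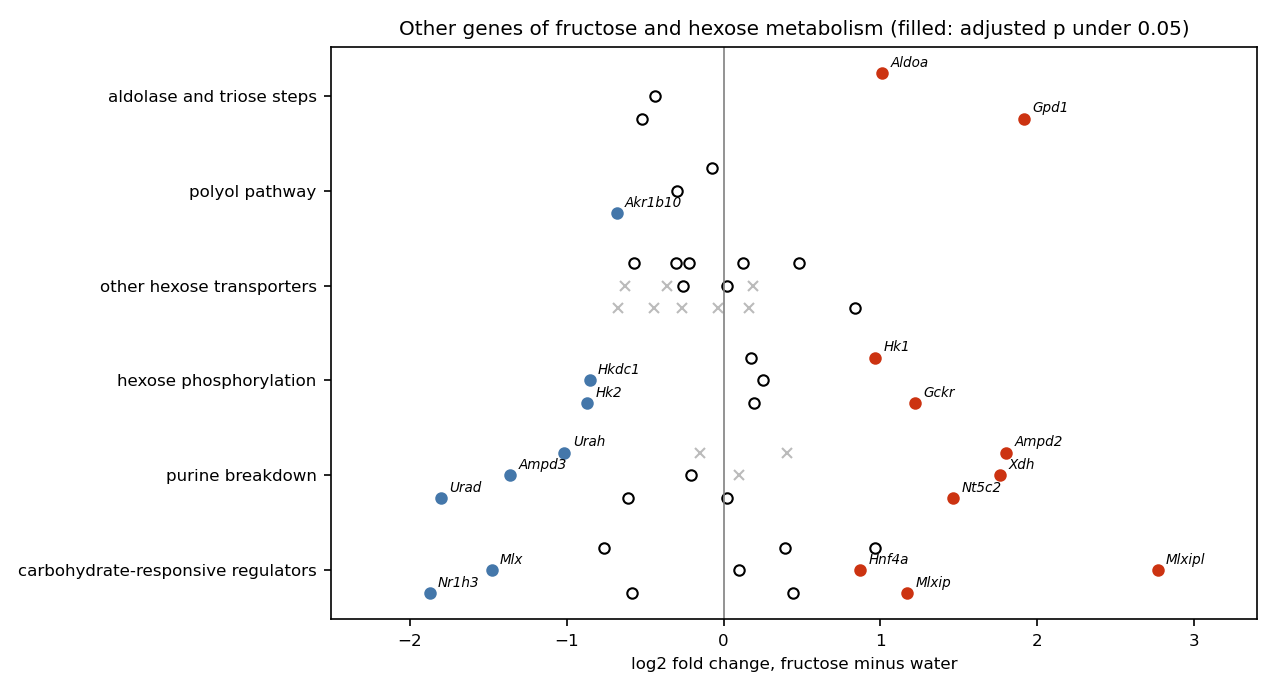
Log2 fold change between fructose and water for 53 genes in 6 lists (rows, with points offset for legibility); filled red points rose and filled blue points fell at an adjusted p under 0.05, open points did not pass, and grey crosses were under the negative controls on all 6 arrays. Mlxipl lies farthest to the right at 2.77 and Nr1h3 farthest to the left at -1.87.

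Some markers of other cell types also differed from water. Over all probe sets, 11.8% rose and 12.7% fell with fructose, and these lists are short, so a count of 1 says little. With fructose, 3 of 4 measured pericentral hepatocyte markers rose and 1 of 3 periportal markers did, 2 of 4 sinusoidal endothelial markers rose and 1 fell, 3 of 5 Kupffer cell markers fell and 2 of 5 stellate cell markers rose. The mean of the pericentral markers was 11.3 to 12.4 on water and 12.4 to 12.8 on fructose, and that of the Kupffer markers 9.39 to 9.88 and 8.64 to 8.93. Of the Kupffer markers, 0 of 5 passed with benzoate or sorbate against water (limma) and 2 fell with nitrite. Against fructose alone 2 rose with sorbate, beside 0.635% of all probe sets that passed. The pericentral and endothelial counts against water were the same with each preservative, 2 to 3 periportal and 1 to 2 stellate markers rose, and 1 stellate marker fell with nitrite. With the preservatives, 15.6% to 16.7% of all probe sets rose against water and 18.7% to 19.8% fell. Between fructose alone and water, 1 of 4 cholangiocyte and 1 of 3 adipocyte markers fell, the latter under the negative controls on all 15 arrays. In that comparison 0 of 3 pancreatic acinar and 0 of 3 kidney tubule markers passed (limma). The counts against water were the same with the preservatives, with these exceptions. One of 3 kidney tubule markers fell with benzoate and with sorbate, 2 of 4 cholangiocyte markers fell with sorbate, and 0 of 3 adipocyte markers passed with nitrite. The part of these shifts in the values of Slc2a2, Khk, Tkfc and Glyctk was not tested.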

How the data were processed

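Liver RNA of 15 mice in 5 groups was measured on Clariom S mouse arrays, grouped by their labels. The authors deposited one log2 signal for each probe set, already normalized. The methods name SST-RMA (Transcriptome Analysis Console), and the submitters' processing notes list RMA, Affymetrix Expression Console 1.4 and that console. No scanner files were used. Of 28846 entries, 6640 control probes were left out and 22206 probe sets were tested. Symbols came from the platform annotation, and 19572 probe sets carried exactly 1. Coordinates and promoters are those of RefSeq on GRCm38.p6, where a window was found for all 7 genes.

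In R 4.3.3 (data.table version 1.17.8), limma 3.58.1 was run on the 15 arrays together, with a mean for each group and no further scaling, and 7 comparisons and an F test over the 4 fructose-fed groups were adjusted by Benjamini-Hochberg over all probe sets. A gene passed at an adjusted p under 0.05. The fit was tested on simulated data beforehand. Signals of different probe sets were set against each other only to choose the brighter background and the dim filter. A signal under the median of 5222 negative control probes on its array was taken as not above background, and a fold against it is a bound against that median. All 7 genes are named. From every pathway list up to 2 genes in each direction are named, those that passed with the widest change under fructose, and for each gene above background the 3 genes of the nearest profile. The genes, lists and tests were chosen with earlier results of these data known.

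Alternatives were quantile normalization, median centring, leaving out the dimmest 30% of probe sets, restriction to probe sets of 1 symbol, a trended robust variance, array weights, only the 2 groups compared, the replicate number as a block, the hybridization controls or the Y-linked mean as a covariate, water arrays 1 and 2 left out, each array left out in turn, and other call rules. Arrays carry no read depth, and 3 per group limit the precision. The series text calls the 3 samples of a group biological replicates. Correlations within groups were 0.965 to 0.989, and no pair of arrays held identical values.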

Additional observations from a re-analysis of the deposited data

How the results depend on the processing

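Most values kept their direction and their side of the threshold: of the alternatives, 493 did, 33 kept the direction and lost the call, and 19 changed sign. The 493 include comparisons that had no call to lose, namely those against fructose alone and those of Slc2a5. All 33 lost calls were in comparisons with water. The number of the 6 genes that passed against water was 4 in each comparison. It became 0 in all 4 comparisons with the hybridization controls as a covariate, which nearly marks the water group. Without water arrays 1 and 2, which leaves 1 water array, it became 0 with fructose and 2 with benzoate, nitrite and sorbate, and the probe sets passing fell from 5427 to 1035 with fructose. With 1 array left out at a time it ranged from 3 to 4 with fructose and stayed at 4 with each preservative, and it stayed at 0 against fructose. The replicate numbers mark only a shared number: same-numbered arrays of different groups correlated at -0.08 to 0.22 after group means were removed, and 7 of 15 arrays correlated best with their own number. With the replicate number as a block, 4 genes passed in each comparison with water and 0 against fructose.

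The values that changed sign had not passed the test with all arrays. Khk with nitrite against fructose was -0.065 with the hybridization covariate and -0.060 to 0.41 with 1 array left out. For Slc2a5, fructose against water was 0.37 with the hybridization covariate, benzoate against water -0.11 without water arrays 1 and 2 and -0.16 to 0.77 with 1 array left out, and nitrite against fructose -0.039 to 1.09 with 1 array left out. Nitrite against water was 1.03 with the hybridization covariate and -0.60 to 0.53 with 1 array left out. Sorbate against water was 0.093 after median centring, 0.0097 with array weights, 1.00 and 1.47 with the hybridization and Y-linked covariates, and -0.49 to 0.26 with 1 array left out. The cause was not tested. Median centring moved the median of all probe sets from -0.19 to -0.05 with benzoate against water and from -0.20 to -0.07 with sorbate, and the share of rises among all passing probe sets from 45.6% to 57.6% and from 45.7% to 56.9%. The probe sets passing against fructose numbered 3 with benzoate and 141 with sorbate, beside 2 to 271 and 1 to 654 under other settings with all arrays, the highest with array weights and the 1 with the Y-linked covariate, and 0 to 1 with nitrite. Other probe sets of a gene gave no value, since each gene had 1. The number of arrays and the signal over background, for Slc2a5 and Slc2a8, limit what can be seen.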
